A study of Mus musculus with 76 samples.

Results

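Ghost neurons are cells of the mouse hypothalamus that carry the permanent mark of past *Pomc* promoter activity but no green signal of present activity. They were taken here as all cells labelled Ghost, 34 of the 76 single neurons sequenced, of which 15 came from mice on chow diet (CD) and 19 from mice on high-fat diet (HFD). The comparison asks how gene expression in Ghost neurons differed after 6 months of HFD. All cells came from male mice in which tamoxifen-inducible Cre, driven by *Pomc* promoter elements, switches on red tdTomato, with eGFP driven by the *Pomc* promoter as the second reporter (PomcCreERT2;tdTomato;Pomc-eGFP), whereas the methods name the Patch-seq mice without the eGFP allele. Both diet groups had been given tamoxifen as adults, so both share the Cre, the reporters and the drug, and no cells of untreated mice or of mice without the transgenes were compared. After a patch-clamp recording the cell content was aspirated into the pipette, amplified and sequenced, so that a library holds whatever entered 1 pipette. The labels name no mouse for any cell, so each diet counts as 1 sample of cells. No test between the diets could therefore be made, and differences are given as ratios of means beside the values of the cells.

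Pomc neurons of the arcuate nucleus make pro-opiomelanocortin, which the prohormone convertases encoded by *Pcsk1* and *Pcsk2* cut into smaller peptides. One of these, alpha-melanocyte-stimulating hormone, acts on melanocortin receptors to lower food intake, while neighbouring AgRP neurons, which make *Agrp* and *Npy*, oppose it. Pomc neurons sense leptin, insulin and other hormones of energy balance. Microglia are the resident immune cells of the brain, and their numbers and shape in the mediobasal hypothalamus are known to respond to fat-rich diets.

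Counts on genes ranged from 4057 to 985226 per cell on CD, with a median of 123528, and from 12847 to 1306718 on HFD, with a median of 333785. Between 586 and 7805 genes had a count in a CD cell (median 3199) and between 839 and 9808 in an HFD cell (median 2453). With every cell drawn down to 40000 counts, called equal depth below, 12 CD and 17 HFD cells remained, and the medians were 2149.5 and 1972 genes. Levels are the counts of a gene scaled to 1000000 counts per cell (CPM). In the 34 Ghost cells, 7 genes that are counted in each of the 76 cells took 48.3% of all counts, with median shares per cell of 48.6% on CD and 43.9% on HFD. CD cell 712 stands apart, with 4057 counts, no count of *Pomc* or *Cartpt* and a count of 1 of 18 pan-neuronal genes, and HFD cell 713 is the other cell with fewer than 1000 genes. Results that either cell moved by more than 1.5-fold are given without it. HFD cell 657 also had few counts, 12900 over 1632 genes, so that 1 count in it stands for 77.5 CPM.

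As background for every list below, 8973 genes had at least 5 counts in at least 3 of the 34 cells. Mean CPM was at least 2-fold higher on HFD for 2312 of them (25.8%) and at least 2-fold lower for 2282 (25.4%), and it was higher by any amount for 49%. The difference stayed past 2-fold with any 1 of the 34 cells left out, which is called held below, for 1104 genes on the higher side (12.3%) and 822 on the lower side (9.16%). In the deposited normalised values 2814 genes were at least 2-fold higher and 1601 at least 2-fold lower. The median log2 ratio of HFD to CD over all 8973 genes was -0.03 in CPM and 0.26 in the deposited values, so directions of lists are stated for both scales where they differ. On the deposited scale each count is divided by 1 factor per cell. At 0.0157 that of HFD cell 657 was the lowest of all cells, against a median of 1.53 over HFD Ghost cells. The few counts of this cell are therefore scaled up most in deposited values.

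*Pomc* itself was counted in nearly all Ghost neurons on both diets (14 of 15 CD cells and 18 of 19 HFD cells), although the cells were chosen for the absence of the eGFP signal. In CD cells *Pomc* (ENSMUSG00000020660) had its lowest value at 0, its median at 2291 and its highest at 34418 CPM, and in HFD cells the same values were 0, 4171 and 8826 CPM. The mean was 6296 CPM on CD and 3686 CPM on HFD, a ratio of 0.586 or -0.77 on the log2 scale. The diets overlapped over the whole HFD range, and the median and the mean went opposite ways. A single CD cell, number 687, held the highest value, and without it the log2 ratio was -0.22. In the deposited values the log2 ratio was -0.03.

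More HFD than CD cells had low *Pomc*. Below 1000 CPM, a level chosen after the values were seen, lay 2 of 15 CD cells, or 13.3% with an exact 95% interval from 1.66% to 40.5%. On HFD it was 8 of 19 cells, or 42.1% with an interval from 20.3% to 66.5%, and the intervals overlap. Of these 8 HFD cells 6 also held counts of at least 3 microglia genes, described below, and without all such cells the counts were 2 of 11 CD and 2 of 7 HFD cells. No HFD cell lay between 672 and 1092 CPM and no CD cell between 410 and 1773 CPM. All intervals here are Clopper-Pearson intervals on shares or Poisson intervals on counts, and they cover counting error only, because reads without molecular identifiers are not independent molecules and cells of 1 mouse are not independent. Without the Ghost cells that held counts of at least 3 microglia genes, the *Pomc* log2 ratio was -0.04. These cells alone are called the cells that held microglia genes below. Cells with fewer of these genes were kept, among them HFD cells 646 and 713 with 1578 and 6772 summed CPM of microglia genes. Values given in this way therefore still include some RNA of microglia genes.

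*Cartpt*, which encodes the anorexigenic peptide precursor CART, was counted in 13 of 15 CD and 19 of 19 HFD cells. Its values ran from 0 over a median of 2270 to 6587 CPM on CD and from 2.53 over 1771 to 4516 CPM on HFD, and the diets overlapped almost entirely. The log2 ratio of means was -0.51 in CPM and 0.10 in the deposited values. *Npy*, the orexigenic neuropeptide Y, was counted in 6 CD and 7 HFD cells, with means of 78.4 and 49.5 CPM and highest cells of 479.6 and 304.2 CPM. Its log2 ratio of -0.67 was -0.01 without CD cell 664 and -1.15 without HFD cell 652. *Agrp* was counted in 2 CD and 4 HFD cells, with means of 11.05 and 13.9 CPM. HFD cell 694 was the highest at 204.6 CPM, and the log2 ratio of 0.34 was -1.72 without it and 1.61 without CD cell 691, and -1.68 without the cells that held microglia genes. The counts of *Agrp* and *Npy* therefore left no order of the diets that held over the cells.

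Of 19 measured Pomc neuron genes, 14 had a lower mean on HFD, 5 of them at least 2-fold, and 4 were at least 2-fold higher. Their median log2 ratio was -0.51 in CPM, 0.10 in the deposited values and 0.05 in CPM without the cells that held microglia genes, so the list had no direction that held across these settings. Among its members *Lepr*, the leptin receptor, had 50 counts in 3 CD cells and 32 counts in 1 HFD cell. Its mean was 17.8 CPM on CD, where cell 691 reached 161.1 CPM, and 1.29 CPM on HFD, where cell 637 alone had 24.5 CPM. The log2 ratio of -3.79 was -2.56 without cell 691 and -5.56 without cell 637. Without cell 637 no count was left on HFD, so -5.56 is a bound, with HFD set at 3 counts over its summed counts. At equal depth *Lepr* was counted in 3 of 12 CD and 0 of 17 HFD cells. A count of 0 among 17 cells does not exclude HFD cells with *Lepr*, since 1 was found at full depth. *Nkx2-1*, which encodes a transcription factor of the developing and adult hypothalamus, had means of 1.52 and 11.7 CPM in 3 CD and 5 HFD cells (log2 ratio 2.94, 2.17 without HFD cell 671 and 4.2 without CD cell 661).

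In mean CPM the prohormone convertases differed in opposite directions between the diets, but *Pcsk2* fell within 2-fold without the cells that held microglia genes. *Pcsk1* had a median of 4.06 CPM and a highest value of 1165 CPM in CD cells, where 8 of 15 had a count, against a median of 0 and a highest value of 172.2 CPM in HFD cells, where 4 of 19 had a count. Means were 132.0 and 17.9 CPM, 7.36-fold lower on HFD (log2 ratio -2.88). The CD cells with the most *Pcsk1* lay above every HFD cell, but most cells of either diet were at or near 0. Without CD cell 664 the log2 ratio was -1.70, without HFD cell 637 it was -3.82, and in the deposited values it was -1.55. *Pcsk2* was counted in 5 CD and 6 HFD cells with means of 12.1 and 40.4 CPM, 3.35-fold higher on HFD (log2 ratio 1.74). It was 1.12 without HFD cell 643, 2.74 without CD cell 635, and 0.34 without the cells that held microglia genes. The abundant members of the pathway lay close to 1, with a log2 ratio of 0.01 for the convertase inhibitor *Pcsk1n* (means 783.4 and 789.8 CPM) and 0.25 for carboxypeptidase E, *Cpe* (means 447.6 and 533.9 CPM). The ratio of *Cpe* was -0.18 without HFD cell 657 and 1.23 in the deposited values. Of the 9 prohormone processing genes measured, 2 were at least 2-fold higher and 1 at least 2-fold lower.

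**Figure D1:**
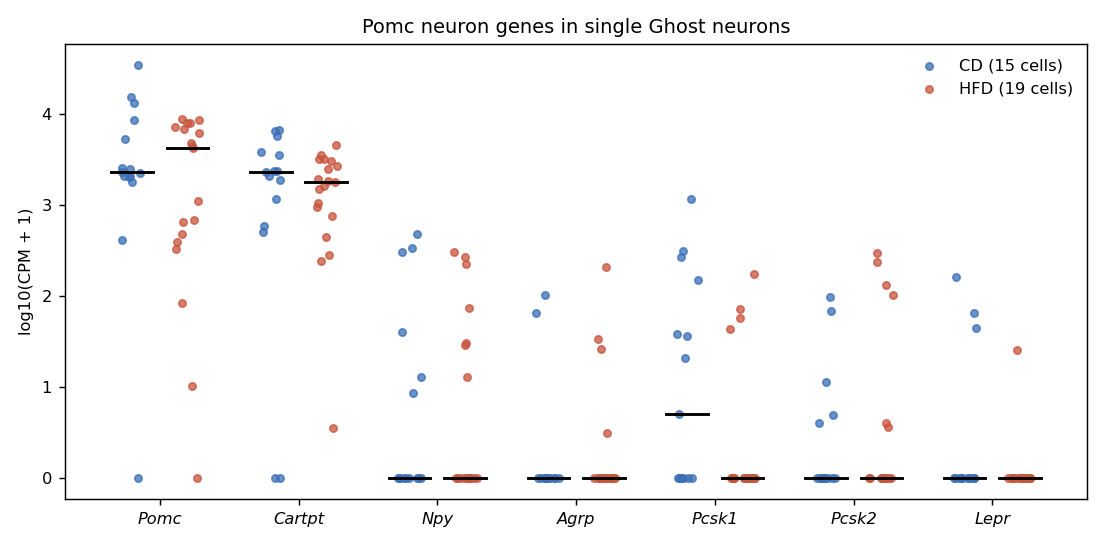
Levels of *Pomc*, *Cartpt*, *Npy*, *Agrp*, *Pcsk1*, *Pcsk2* and *Lepr* in single Ghost neurons, as log10(CPM + 1). Each point is 1 cell (15 on CD in blue, 19 on HFD in red) and black bars are medians. *Pomc* and *Cartpt* overlap between the diets, while *Pcsk1* has counts in 8 CD and 4 HFD cells.

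Other peptide genes were counted in few Ghost cells. Of 15 neuropeptide precursors measured, 4 were at least 2-fold higher and 2 at least 2-fold lower, and the median log2 ratio was -0.15 in CPM and 0.10 in the deposited values. Galanin, *Gal*, had means of 102.6 CPM on CD (4 cells) and 22.9 CPM on HFD (3 cells), with a log2 ratio of -2.17 that was -1.01 without CD cell 636, -2.93 without HFD cell 671 and -0.14 without CD cells 633 to 636. *Tac2*, the neurokinin B precursor, was counted in 1 CD and 3 HFD cells with means of 5.94 and 30.7 CPM (log2 ratio 2.37, 1.44 without HFD cell 652 and 5.55 without CD cell 705). Without cell 705 no count was left on CD, so 5.55 is a bound, with CD set at 3 counts over its summed counts. Of the 5 granin genes, which encode proteins of dense-core vesicles, *Scg2* and *Vgf* were at least 2-fold lower and *Chgb* at least 2-fold higher, and none held. The difference of each was decided by 1 or 2 cells: *Vgf* had a log2 ratio of -1.56 that was -0.60 without CD cell 687 and -2.27 without HFD cell 655, and *Chgb* one of 1.22 that was 0.14 without HFD cell 657 and 2.17 without CD cell 687. Without the cells that held microglia genes they were -0.03 and 0.55.

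Genes of microglia were higher in Ghost neuron libraries on HFD, and of the lists described here theirs lay furthest from the median of all genes. Of 18 listed microglia markers 15 passed the filter on low counts, and all 15 were at least 2-fold higher on HFD, 12 of them with any 1 cell left out. The remaining 3 did not pass. *Fcrls* (82 counts in 1 cell) and *P2ry12* (233 counts in 2 cells) were counted on HFD alone, and *Itgam* had 14 counts in 1 CD cell and 6 counts in 2 HFD cells. A gene can pass through the diet in which it is high, and the background shares of 25.8% and 12.3% are those of genes passed in the same way. The median log2 ratio over the 15 genes was 3.69 in CPM, 3.77 in the deposited values and 3.99 in CPM with the 7 always counted genes left out. Over the 14 genes counted on both diets it was 3.52. It was 4.68 without CD cell 709, the CD cell with the most microglia genes.

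For 2 genes of the list the promoter is shown, from 250 bases before to 50 bases after the annotated start in RefSeq (build GRCm38.p6), because microglial genes are known targets of the ETS factor PU.1. These 2 were chosen after the search as genes with a match, and the promoters of *Cx3cr1*, *Trem2* and *Aif1*, read in the same way, had 0 matches. Capitals mark the core letters GGAAGT on either strand, here read as ACTTCC. The *Ctss* promoter lies at chr3:95526536-95526835 on the plus strand and has 1 match, which begins at base -2 relative to the start. The *C1qb* promoter lies at chr4:136886151-136886450 on the minus strand, is written on the strand of the gene, and has 1 match that begins at base -53.
Ctss: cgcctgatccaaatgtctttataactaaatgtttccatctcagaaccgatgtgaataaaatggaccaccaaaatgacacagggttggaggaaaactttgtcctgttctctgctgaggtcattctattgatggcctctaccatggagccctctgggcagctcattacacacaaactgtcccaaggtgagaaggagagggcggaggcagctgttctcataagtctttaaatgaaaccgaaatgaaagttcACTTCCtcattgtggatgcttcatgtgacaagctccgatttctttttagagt
C1qb: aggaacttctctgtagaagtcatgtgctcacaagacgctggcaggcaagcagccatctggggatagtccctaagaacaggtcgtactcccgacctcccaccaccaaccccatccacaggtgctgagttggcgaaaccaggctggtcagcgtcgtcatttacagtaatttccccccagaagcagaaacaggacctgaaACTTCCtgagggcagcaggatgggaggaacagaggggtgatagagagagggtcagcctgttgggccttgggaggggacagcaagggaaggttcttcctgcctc
Of the 18 listed genes 13 had a promoter in the table, and 8 of these 13 (61.5%) held GGAAGT or its reverse complement, against 24.1% of 27025 promoters of the same length. The longer form GAGGAAGT, which contains the shorter, was in 2 of 13, *C1qc* and *Ctss*, and in 3.28% of all promoters. These are matches of letters and not sites of binding.

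*Ctss* encodes cathepsin S, a lysosomal protease abundant in microglia. *Ctss* (ENSMUSG00000038642) was counted in 3 of 15 CD cells (20%, 4.33% to 48.1%) and 10 of 19 HFD cells (52.6%, 28.9% to 75.6%), and at equal depth in 2 of 12 and 8 of 17. In CD cells it ranged from 0 over a median of 0 to 417.4 CPM, and in HFD cells from 0 over a median of 9.90 to 3178 CPM. The means of 33.4 and 451.7 CPM gave a 13.5-fold higher level on HFD, while 9 HFD cells had no count and thus lay with most of the CD cells. Over the summed counts of each diet the level was 10.7 CPM on CD (7.90 to 14.04) and 361.0 CPM on HFD (348.8 to 373.4). The log2 ratio of 3.76 was 3.17 without HFD cell 657 and 6.25 without CD cell 684.

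*C1qb*, a chain of complement C1q, showed the same order. *C1qb* was counted in 4 CD and 9 HFD cells, and at equal depth in 1 of 12 and 9 of 17. Its means of 27.5 and 279.3 CPM gave a 10.1-fold higher level on HFD (log2 ratio 3.34, 2.40 without HFD cell 656 and 6.23 without CD cell 711). The other C1q chains differed less, by 3.08-fold for *C1qa* and 3.45-fold for *C1qc*. The log2 ratio of *C1qa*, 1.62, was 3.29 without CD cell 684 and 0.64 without the longest run of HFD cells (637 to 657), and that of *C1qc*, 1.78, was 0.34 without HFD cell 657 and 6.02 without cell 684.

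Receptors and adaptors of microglia were at or near 0 in CD cells. *Trem2*, a lipid-sensing receptor, had no count in 15 CD cells and 380 counts in 7 of 19 HFD cells, also 0 of 12 and 7 of 17 at equal depth. Set against a floor of 3 counts over the summed CD counts, its mean of 37.8 CPM on HFD was at least 59.1-fold higher, and at least 36.6-fold without HFD cell 697. *Tyrobp*, the adaptor through which TREM2 signals, was counted in 2 CD and 8 HFD cells with means of 5.19 and 67.2 CPM, 12.9-fold higher on HFD, and its log2 ratio of 3.69 ran from 3.11 without cell 656 to 4.68 without cell 709. *Cx3cr1*, the fractalkine receptor, had 2 counts in 1 CD cell and 636 counts in 5 HFD cells. Over summed counts this was 0.426 CPM (0.0516 to 1.54) against 68.9 CPM (63.7 to 74.5), a ratio of 162 with a counting interval of 44.6 to 1339.

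The other markers of the list were also higher on HFD, but rested on fewer cells. *Tmem119* was counted in 1 CD and 3 HFD cells, with 5994 CPM in cell 713 alone, and its log2 ratio of 6.78 was 3.38 without that cell and 8.98 without CD cell 709. *Aif1*, *Siglech*, *Cd68* and *Ly86* had log2 ratios of 3.35, 2.41, 3.82 and 5.70, each from 1 CD cell and 3 to 6 HFD cells. Without 1 HFD cell they were as low as 2.63 (cell 694), 1.58 (cell 713), 1.94 (cell 657) and 4.93 (cell 657). Without the CD cell with the count, 712 for *Siglech* and 709 for the others, they were as high as 6.78, 7.10, 6.70 and 7.33. No count was then left on CD, so these upper values, and the 8.98 of *Tmem119*, are bounds against the floor of 3 counts. *Siglech* had 1 count on CD and 437 counts on HFD, a ratio over summed counts of 222 with a counting interval of 39.7 to 8800. *Csf1r*, the receptor on which microglia depend for survival, had a log2 ratio of 2.41 that was 0.12 without HFD cell 656 and 6.65 without CD cell 705. *Laptm5* was counted in more CD than HFD cells, 4 against 3, and its log2 ratio of 1.29 was -1.10 without cell 656 and 2.20 without CD cell 659.

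**Figure D2:**
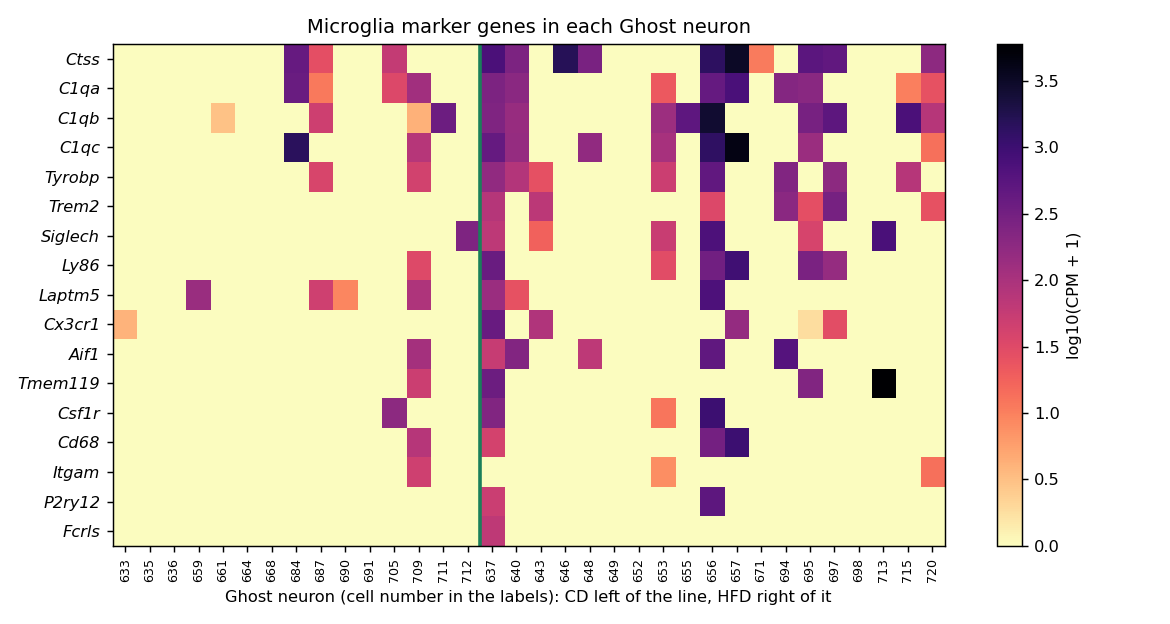
Level of 17 of the 18 microglia marker genes (rows) in each Ghost neuron (columns, 15 CD cells left and 19 HFD cells right of the green line), coloured by log10(CPM + 1) from 0 (pale) upwards. Over all 18 genes, HFD cell 637 has counts of 17 and CD cell 709 of 11.

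In a single cell the microglia genes occurred together with neuronal ones. At least 3 of the 18 genes were counted in 4 of 15 CD cells (26.7%, 7.79% to 55.1%) and 12 of 19 HFD cells (63.2%, 38.4% to 83.7%), and at equal depth in 4 of 12 and 10 of 17. At least 1 gene was counted in 11 CD and 16 HFD cells. HFD cell 637 had 17 of 18 microglia genes beside 8400 CPM of *Pomc* and 15 of 18 pan-neuronal genes, and cell 653 had 9 microglia genes beside the highest *Pomc* value of the HFD cells. Cell 656 had 14 microglia genes, no count of *Pomc* and 7 pan-neuronal genes. On HFD the 12 cells with at least 3 microglia genes had a median of 882.0 CPM of *Pomc*, 996.8 CPM of *Cartpt* and 3748 summed CPM of the pan-neuronal genes, and the other 7 cells had 6157, 2673 and 5587 CPM. On CD the 4 cells with at least 3 of the genes had 2262, 2118 and 5806 CPM and the other 11 had 2291, 2270 and 3103 CPM. How these levels relate to the RNA of the microglia genes was not tested. More microglia at the pipette and more RNA of these genes per microglial cell cannot be told apart in such libraries. Which cells made this RNA and how it entered the libraries was not tested.

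The summed CPM of the 18 genes ranged from 0 over a median of 40.6 to 2254 in CD cells and from 0 over a median of 834.6 to 12171 in HFD cells. Means were 287.0 and 2366 CPM, an 8.25-fold higher level on HFD. The 3 highest HFD cells, 657, 656 and 713, held 67.3% of the HFD sum, and without them the HFD mean was 919.2 CPM and the ratio 3.20. Cells 657 and 713 had 12900 and 12847 counts in all. Their sums rest on 157 and 87 counts, against 3775 in cell 656. The ratio was 6.35 without cell 657, 16.2 without CD cell 684, and 7.32 without the cells with fewer than 1000 genes.

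The labels number the cells, and the Ghost cells fall into 8 runs of consecutive numbers of 1 diet, whose meaning the labels do not state. At least 3 microglia genes were counted in 7 of the 11 HFD cells of the longest run (637 to 657), in 0 of 1 (671), in 3 of 4 (694 to 698) and in 2 of 3 (713 to 720). Among CD cells this held for 0 of 3 (633 to 636), 0 of 4 (659 to 668), 2 of 4 (684 to 691) and 2 of 4 (705 to 712). The 4 CD cells with at least 3 of the genes thus came from the later 2 CD runs. Each run holds 1 diet, so run and diet cannot be told apart. Without the 11 HFD cells of the longest run the list median was 2.63, and without CD cells 705 to 712 it was 5.97.

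**Figure D3:**
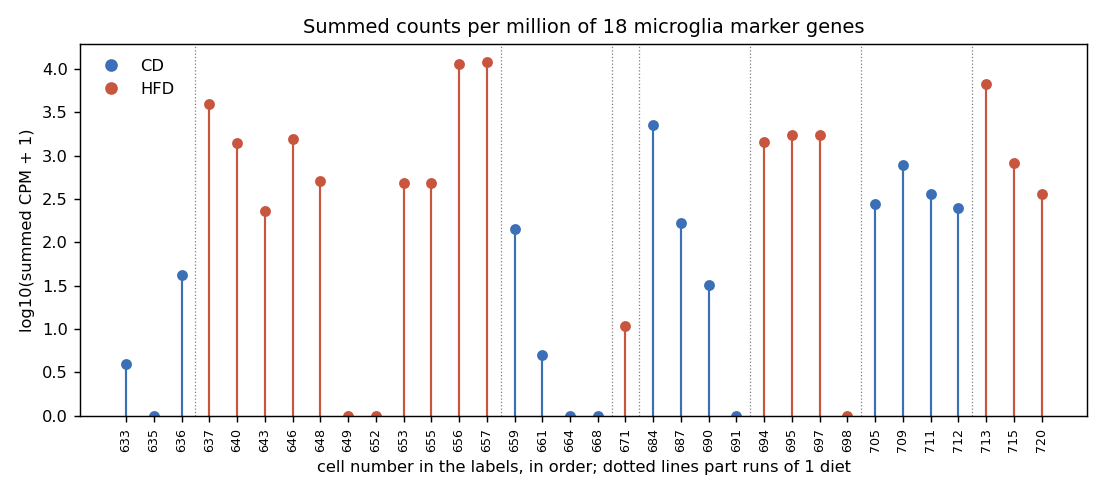
Summed level of the 18 microglia genes in each Ghost neuron, as log10(summed CPM + 1), with cells in the order of their numbers and dotted lines between runs of 1 diet (CD blue, HFD red). The highest cells are HFD cells 657, 656 and 713, and CD cells 635, 664, 668 and 691 are at 0.

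Astrocyte and oligodendrocyte markers were spread to both sides, and markers of other cell types were too sparse for a list median. Of 10 astrocyte markers 4 were at least 2-fold higher and 3 at least 2-fold lower, with a median log2 ratio of 0.37 that was -0.62 without HFD cell 643 and -0.28 without HFD cell 713. Of 6 oligodendrocyte markers 1 was higher and 2 lower past 2-fold (median -0.11, between -0.75 without HFD cell 715 and 0.53 without CD cell 705). Of the 11 tanycyte and ependymal markers 2 passed the filter, and of the 12 endothelial and mural markers 0 did, with a count of any of them in 0 CD and 2 HFD cells. The haemoglobin gene *Hbb-bs*, an erythrocyte transcript, was counted in 1 CD and 9 HFD cells. Cells 713, 715 and 720, which form 1 run, had 1168, 630.6 and 288.6 CPM of it and the other HFD cells at most 48.7 CPM. The log2 ratio of *Hbb-bs*, 4.66, was 3.65 without cell 713, 7.48 without CD cell 664 and 0.61 without cells 713, 715 and 720. No count was left on CD without cell 664, so 7.48 is a bound against the floor of 3 counts. Mean levels of both *Hbb-bs* and the microglia genes were higher on HFD, that of *Hbb-bs* mostly through this 1 run. Cells 713, 715 and 720 had 2, 3 and 7 microglia genes. HFD cells 637, 656 and 657, with 17, 14 and 7, had no count of *Hbb-bs*. The part of either in other differences was not tested, beyond the values given without the cells that held microglia genes.

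The genes of inflammatory signalling were split. Of 13 measured, 7 were at least 2-fold higher and 4 at least 2-fold lower, and 3 and 1 held. The median log2 ratio was 1.24, but it was -0.58 without HFD cell 671, and -0.98 without the cells that held microglia genes, so no direction of the list held. *Nfkb1*, a subunit of NF-kappaB, had no count on CD and 127 counts in 4 HFD cells, at least 17.9-fold higher (at least 9.96-fold without HFD cell 671), whereas *Ikbkg*, which encodes the NEMO subunit of the kinase that activates it, had 110 counts in 2 CD cells and 18 in 1 HFD cell. For *Ikbkg* the log2 ratio was -6.65, and it was -2.69 without CD cell 668 and -7.59 without HFD cell 637, and -0.04 without CD cells 659 to 668. No count was left on HFD without cell 637, nor on CD without cells 659 to 668. Both -7.59 and -0.04 are therefore set by the floor of 3 counts. *B2m*, the light chain of MHC class I, was the most widely counted member (10 CD and 11 HFD cells). Its mean was 83.4 CPM on CD and 252.8 CPM on HFD, where cell 657 had 2946 CPM. The log2 ratio of *B2m*, 1.6, was 0.31 without that cell and -0.31 without the cells that held counts of at least 3 microglia genes.

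Of 16 receptors for metabolic hormones, 6 were at least 2-fold lower on HFD and 2 at least 2-fold higher, and 4 and 2 held. Their median log2 ratio was -0.42 in CPM and 0.09 in the deposited values, and in CPM -1.04 without HFD cell 643. Beside *Lepr*, the glucocorticoid receptor *Nr3c1* was lower. It was counted in 9 CD and 10 HFD cells, with a median of 28.5 and a highest value of 253.3 CPM on CD against 5.36 and 71.4 CPM on HFD. The means of 58.98 and 19.2 CPM gave a log2 ratio of -1.62, which stayed between -1.86 and -1.23 with any cell left out, was -0.87 without CD cells 659 to 668, and was -1.96 without the cells that held microglia genes. The upper CD cells thus lay above all HFD cells, and the lower ones overlapped with them. *Pgr*, the progesterone receptor, had 491 counts in 4 CD cells and 33 in 3 HFD cells, with means of 54.4 and 2.07 CPM (log2 ratio -4.72, -3.56 without CD cell 636 and -5.42 without HFD cell 671). *Adipor2*, an adiponectin receptor, was higher on HFD, with 6 counts in 2 CD cells and 148 counts in 7 HFD cells and means of 0.527 and 13.6 CPM. Its log2 ratio was 4.69, and it was 4.12 without HFD cell 643 and 7.01 without CD cell 635. The thyroid hormone receptor *Thra*, counted in 14 CD and 16 HFD cells, had nearly equal means of 205.6 and 225.4 CPM.

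Among 26 genes of leptin and insulin signalling, 6 were at least 2-fold higher and 5 at least 2-fold lower, and the median log2 ratio of 0.04 lay at that of all genes. The adaptor *Irs2*, through which insulin and leptin receptors signal, was lower on HFD. In CD cells *Irs2* had a median of 84.8 and a highest value of 514.8 CPM, in HFD cells a median of 0.841 and a highest value of 256.9 CPM, and 10 cells of each diet had a count. The means of 138.8 and 41.5 CPM were 3.35-fold apart. The log2 ratio of -1.74 stayed between -2.23 and -1.43 with any cell left out, was -1.25 in the deposited values, and -1.81 without the cells that held microglia genes. *Pdpk1*, the kinase that phosphorylates AKT, was higher on HFD (5 CD and 8 HFD cells, means of 16.4 and 121.8 CPM), and its log2 ratio of 2.89 was 1.86 without HFD cell 657 and 3.66 without CD cell 687, and 0.81 without the 11 HFD cells of the longest run. *Tsc1*, a brake on mTORC1, had no count on CD and 713 counts in 4 HFD cells. Its mean of 31.2 CPM was thus at least 48.8-fold higher, and at least 23.9-fold without HFD cell 695. Without the cells that held microglia genes this bound was 1.73 as a log2 ratio.

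Genes of synaptic vesicle release were more often lower than higher on HFD, with 16 of 23 lower and 4 of these past 2-fold, against 1 higher past 2-fold. The median log2 ratio was -0.43 in CPM and -0.31 in the deposited values, and it was -0.15 without the cells that held microglia genes. *Syt5*, a synaptotagmin, was counted in 11 CD and 10 HFD cells. Its median and highest value were 95.9 and 1067 CPM on CD against 0.898 and 308.8 CPM on HFD, and its means were 205.3 and 57.9 CPM (log2 ratio -1.83, between -2.22 and -1.31 with any cell left out). *Sv2c*, a vesicle glycoprotein, had means of 14.6 and 3.29 CPM in 4 CD and 3 HFD cells (log2 ratio -2.15, -3.15 without HFD cell 643 and -0.84 without CD cells 684 to 691). The core SNARE gene *Snap25* was counted in 13 CD and 17 HFD cells with means of 524.8 and 553.2 CPM, a log2 ratio of 0.08. Of 18 pan-neuronal genes 1 was at least 2-fold higher and 3 at least 2-fold lower (median -0.02), and *Mapt*, which encodes tau, was the one that held, with means of 364.1 and 139.9 CPM and a log2 ratio of -1.38 that was -0.92 without CD cells 659 to 668.

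The differences of GABA and glutamate synthesis genes depended on which cells were used. *Gad1* and *Gad2*, which encode glutamate decarboxylases, were counted in 9 and 10 CD cells and 13 and 11 HFD cells. *Gad2* had means of 578.9 and 142.7 CPM, and its log2 ratio of -2.02 was -0.91 without CD cell 712, the cell with 4057 counts, in which it reached 4930 CPM. *Gad1* had a log2 ratio of -0.35, which was 0.06 without CD cell 659 and -1.02 without HFD cell 694. Without the cells that held microglia genes *Gad1* was at -3.09 and *Gad2* at -2.45. *Slc17a6*, the vesicular glutamate transporter VGLUT2, which was chosen after its values were seen, was counted in 1 CD and 8 HFD cells, at equal depth in 1 of 12 and 4 of 17. Its means were 11.4 and 46.8 CPM, and the log2 ratio of 2.04 was 0.63 without HFD cell 649 and 5.97 without CD cell 687. No count was left on CD without cell 687, so 5.97 is a bound against the floor of 3 counts.

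Ion channel genes were sparse and mixed. Of 32 potassium channel genes measured, 9 were at least 2-fold higher and 13 at least 2-fold lower, and 7 and 4 held. The median log2 ratio was -0.52 in CPM but 0.36 in the deposited values. *Kcnd1*, a channel of the A-type current, had 58 counts in 4 CD cells and none in 19 HFD cells, so that its CD mean of 45.8 CPM was at least 141-fold above the level on HFD. Without CD cell 659 this bound was -6.04 as a log2 ratio of HFD to CD. *Kcnd3* of the same family went the other way, with 1 count in 1 CD cell and 143 counts in 4 HFD cells, a ratio over summed counts of 72.7 with a counting interval of 12.8 to 2893. Cell 657 had 2093 CPM of it, and without this cell the log2 ratio of means, 10.22, was 6.15. It was 4.07 without the longest run. Without the cells that held microglia genes it was 1.14, a bound against the floor of 3 counts, because no count was left on CD. Of 18 calcium channel genes 5 were at least 2-fold lower and 2 higher, with the T-type channel gene *Cacna1h* at 38.7 and 4.98 CPM in 4 CD and 2 HFD cells (log2 ratio -2.96, -5.40 without HFD cell 637 and -2.33 without CD cell 709). Of 12 GABA receptor subunits 3 were at least 2-fold lower and 1 higher, and *Gabrb1* had means of 71.8 and 20.96 CPM in 7 CD and 4 HFD cells (log2 ratio -1.78, -2.46 without HFD cell 637). Of 15 glutamate receptor subunits 4 were higher and 2 lower past 2-fold. *Grm5*, a metabotropic receptor, was lower with means of 39.01 and 8.96 CPM in 5 cells of each diet (log2 ratio -2.12, -3.13 without HFD cell 649 and -1.49 without CD cell 664). Sodium channels (9 genes) had a median log2 ratio of -0.54 in CPM, 0.14 in the deposited values and 0.30 without CD cell 709, and HCN channels (3 genes) one of 0.54.

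**Figure D4:**
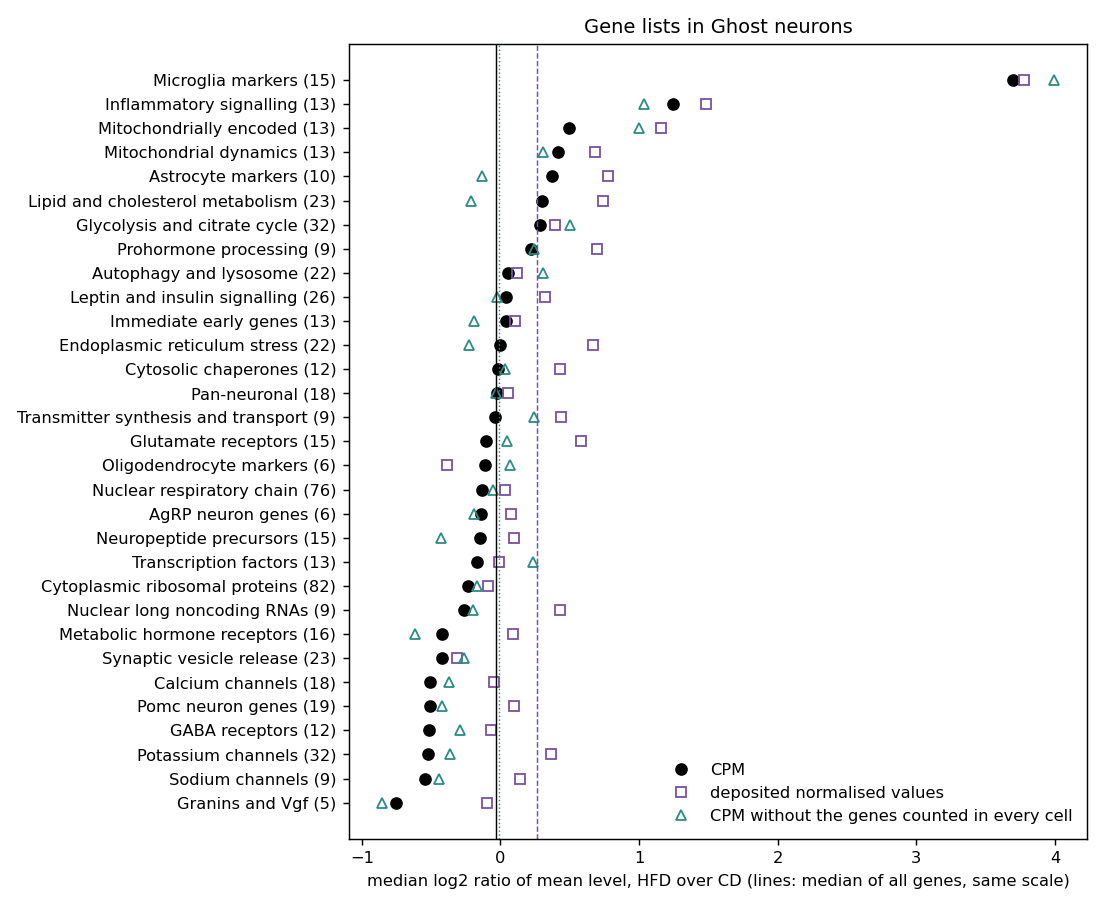
Median log2 ratio of mean level, HFD over CD, for each gene list with at least 5 measured genes (number in brackets) in CPM (filled circles), deposited normalised values (squares) and CPM with the 7 always counted genes left out (triangles). Vertical lines give the median of all 8973 genes on each scale (-0.03 in CPM and 0.26 in deposited values). The microglia markers lie apart at 3.69, 3.77 and 3.99, whereas lists such as potassium channels (-0.52 and 0.36) and Pomc neuron genes (-0.51 and 0.10) change sign with the scale.

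Genes of energy metabolism showed small shifts in the list medians of CPM, with larger ones for mitochondrially encoded genes on the other scales. Of 32 genes of glycolysis and the citrate cycle 24 had a higher mean on HFD, 5 of them at least 2-fold, and the median log2 ratio was 0.29 in CPM, 0.39 in the deposited values and -0.29 without the 11 HFD cells of the longest run. *Aldoa*, the glycolytic aldolase of most tissues, was counted in 14 CD and 19 HFD cells with medians of 597.7 and 1132 CPM and means of 821.6 and 996.2 CPM. *Gapdh* had means of 1380 and 1438 CPM. Neither reached 1.5-fold. The mitochondrially encoded transcripts were higher for 12 of 13, with a median of 0.50 in CPM, 1.16 in the deposited values and -0.14 without the cells that held microglia genes. The most widely counted of these that encode a protein were *mt-Nd1*, with medians of 518.1 and 1139 CPM and a log2 ratio of means of 0.50, and *mt-Co1*, with medians of 761.7 and 1689 CPM and a log2 ratio of -0.04. Single CD cells (659 and 664) held the highest values of these genes, and without them the log2 ratios were 1.19 and 0.58.

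Nuclear genes of the respiratory chain lay near the median of all genes (76 genes, median -0.14, 6 at least 2-fold higher and 6 lower). *Uqcrc2*, a core subunit of complex III, was among the genes that differed most. It was counted in 4 CD and 11 HFD cells, with a median of 0 and a highest value of 154.5 CPM on CD and a median of 36.5 and a highest value of 1085 CPM on HFD, and its means of 19.7 and 234.9 CPM were 11.9-fold apart. On the log2 scale 3.57 became 3.25 without HFD cell 657, 4.54 without CD cell 687 and 4.14 without the cells that held microglia genes. *Ndufs3* of complex I was 3.20-fold higher on HFD (6 CD and 9 HFD cells), with a log2 ratio of 1.68 that was 2.32 without CD cell 687.

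Of 13 genes of mitochondrial dynamics, 4 were at least 2-fold higher on HFD and 3 of these held. *Opa1*, a GTPase of inner membrane fusion, was counted in 2 CD and 8 HFD cells with means of 4.01 and 60.1 CPM (log2 ratio 3.91, 3.27 without HFD cell 698 and 4.92 without CD cell 687). *Pink1*, a kinase that marks damaged mitochondria for removal, was counted in 5 CD and 12 HFD cells. Its median was 0 on CD and 36.3 CPM on HFD, its highest values were 256.5 and 1392 CPM, and its log2 ratio of 2.28 was 1.67 without HFD cell 646, 3.01 without CD cell 661 and 3.13 without the cells that held microglia genes.

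Lipid and cholesterol genes were spread to both sides, with 10 of 23 at least 2-fold higher and 6 at least 2-fold lower, of which 5 and 1 held. The median log2 ratio was 0.30 in CPM, 0.74 in the deposited values and -0.21 in CPM with the 7 always counted genes left out, so the direction depends on the scale, and it was 0.94 without CD cell 668. *Acsl4*, which activates long polyunsaturated fatty acids for membrane lipids, was counted in 8 of 15 CD cells and in 1 of 19 HFD cells, at equal depth in 3 of 12 and 0 of 17. Its CD values ran from 0 over a median of 16.2 to 986.0 CPM, while the only HFD cell with a count had 10.6 CPM. The means of 150.4 and 0.559 CPM rest on 410 and 5 counts, and the log2 ratio of -8.07 was -7.34 without CD cell 712 and -8.78 without HFD cell 697. No count was left on HFD without cell 697, so -8.78 is a bound against the floor of 3 counts. *Idi1*, an isomerase of the cholesterol pathway, was higher on HFD, with 5 counts in 1 CD cell and 145 counts in 4 HFD cells (log2 ratio 4.12, 3.51 without HFD cell 697). *Npc2*, a lysosomal cholesterol carrier from the autophagy and lysosome list, was counted in 5 CD and 12 HFD cells, at equal depth in 2 of 12 and 11 of 17, with medians of 0 and 155.0 CPM. Its means of 46.9 and 153.4 CPM gave a log2 ratio of 1.71, which lay between 1.5 and 2.15 with any cell left out and was 1.41 without the cells that held microglia genes. Of the 22 genes of that list 4 were at least 2-fold higher and 3 lower (median 0.06).

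Stress and activity genes had no common direction. Of 22 genes of endoplasmic reticulum stress, 4 were at least 2-fold higher and 5 lower. The chaperone *Hspa5* had close means of 295.3 and 298.2 CPM, with a log2 ratio of 0.01 that was -0.77 without HFD cell 657, and *Ddit3*, the transcription factor CHOP, was lower on HFD (7 CD and 4 HFD cells, log2 ratio -1.73, -1.22 without CD cell 684 and -2.84 without HFD cell 649). Without the cells that held microglia genes *Ddit3* stood at -0.07. Of 12 cytosolic chaperones 2 were higher and 0 lower past 2-fold. Of 13 immediate early genes, which follow neuronal activity, 4 were higher and 5 lower, and their median log2 ratio of 0.04 was -0.87 without HFD cell 649. *Fos* was counted in 7 CD and 12 HFD cells with means of 201.1 and 334.3 CPM, and its log2 ratio of 0.73 was 0.15 without HFD cell 657 and 1.65 without CD cell 691. *Npas4* had 5 counts in 2 CD cells and 205 counts in 5 HFD cells (log2 ratio 3.39, 2.67 without HFD cell 657 and 6.10 without CD cell 659).

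The cytoplasmic ribosomal protein genes were slightly lower on HFD. Of 82, 60 had a lower mean, 3 of them at least 2-fold, and the median log2 ratio was -0.23 in CPM and -0.09 in the deposited values, where all genes lay at 0.26. The median was 0.01 without the 11 HFD cells of the longest run. Of 9 nuclear long noncoding RNAs 3 were lower and 0 higher past 2-fold, and their median of -0.26 was 0.43 in the deposited values, -0.90 without HFD cell 637 and 0.68 without CD cell 709.

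Outside the lists, 24 genes were named as those furthest apart with any 1 cell left out, among genes counted in at least 10 of the 34 Ghost cells and on the same side on 3 scales. They were chosen by this comparison, so their values are a description. On the higher side *Mast3*, a kinase, had 3 counts in 1 CD cell and 1283 counts in 9 HFD cells, a ratio over summed counts of 218 with a counting interval of 74.3 to 1056. *Zbed5* also had 3 counts on CD, in 2 cells, and 303 in 9 HFD cells, a ratio of 51.4 (17.4 to 251). *Pcgf5*, a subunit of a Polycomb complex, was counted in 3 CD and 10 HFD cells with means of 4.38 and 135.0 CPM, 30.8-fold apart (log2 ratio 4.95, 6.09 without CD cell 709). Without the 11 HFD cells of the longest run it was 1.2, and *Mmd2*, *Top2b*, *Uqcrc2* and *Gm14150*, named below, were at 2.04, 2.07, 2.05 and 2.82. *Tbk1*, a kinase of innate immune signalling and autophagy, was counted in 4 CD and 6 HFD cells with means of 4.81 and 94.1 CPM. Its log2 ratio of 4.29 was 3.75 without HFD cell 657, 5.49 without CD cell 690 and 1.99 without the cells that held microglia genes. *Hbb-bs*, *Opa1* and *Uqcrc2*, described above, *Gm14150*, *Supt5*, *Mmd2*, *Rundc1* and *Top2b* complete the 12, with log2 ratios from 3.57 to 4.66. Without the cells that held microglia genes, which leaves 11 CD and 7 HFD cells, *Rundc1* was at 0.65, within 2-fold. *Mast3* was at 4.05, and the 9 others beside *Tbk1* lay between 4.14 and 10.22. *Mast3* and *Mmd2* (8.17) had no count left on CD, so their values are bounds against the floor of 3 counts. *Pcgf5*, at 10.22, had 1 count left on CD, in cell 635.

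On the lower side *Stag2*, a cohesin subunit, was counted in 10 of 15 CD and 2 of 19 HFD cells, with a median of 3.98 and a highest value of 493.0 CPM on CD and a highest value of 19.9 CPM on HFD. Its means of 69.4 and 1.39 CPM gave a log2 ratio of -5.64 (-4.81 without CD cell 712 and -7.56 without HFD cell 637), but at equal depth the share was 3 of 12 against 1 of 17 cells. *Nudt4*, an inositol polyphosphate phosphatase, was counted in 8 CD and 3 HFD cells with means of 102.3 and 2.39 CPM (log2 ratio -5.42, -4.73 without CD cell 711 and -6.10 without HFD cell 715). *Rab24*, a small GTPase linked to autophagy, was counted in 9 CD and 4 HFD cells with medians of 38.6 and 0 CPM and means of 110.6 and 5.77 CPM (log2 ratio -4.26, -5.11 without HFD cell 653). *Tsr3*, an enzyme of ribosomal RNA modification, was counted in 10 CD and 4 HFD cells, and at equal depth in 9 of 12 and 3 of 17. It had medians of 43.8 and 0 CPM and means of 80.3 and 8.60 CPM, and its log2 ratio of -3.22 ran from -4.28 without HFD cell 697 to -2.72 without CD cell 664. For these 4 genes most HFD cells were at 0 while CD cells ranged widely, and their log2 ratios without the cells that held microglia genes were -5.85, -6.52, -6.80 and -3.89. *Rab24* had no count left on HFD there, so its -6.80 is a bound. The other 8 genes were *Zfp617*, *Ift74*, *Gm10419*, *Lrp1b*, *Cnot4*, *Wapl*, *Etfrf1* and *Bri3*, with log2 ratios from -4.90 to -3.29. Without CD cell 712 those of *Lrp1b*, *Cnot4* and *Wapl* were -2.93, -3.04 and -2.76 in place of -3.87, -3.72 and -3.46, without CD cell 659 that of *Zfp617* was -3.85, and without CD cell 636 that of *Ift74* was -2.87 in place of -4.19.

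**Figure D5:**
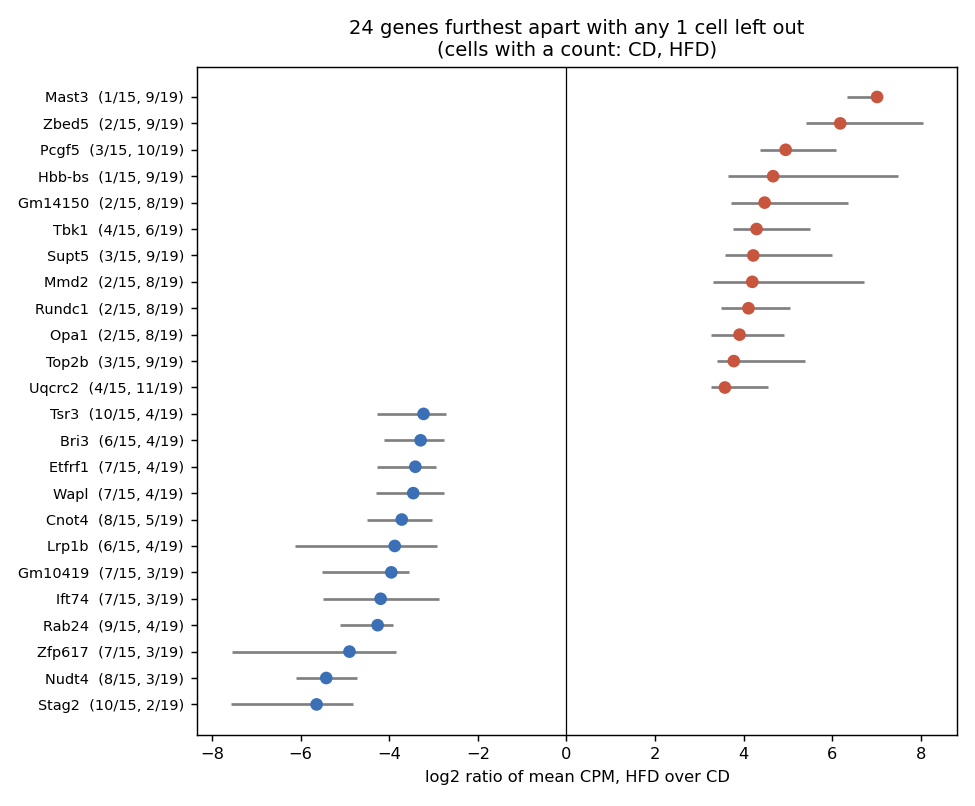
Log2 ratio of mean CPM, HFD over CD, for the 24 genes furthest apart with any 1 cell left out (points, red for higher and blue for lower on HFD) and its range with each cell left out in turn (grey lines). Numbers beside the names are cells with a count of 15 CD and 19 HFD cells, such as 10 and 2 for *Stag2* and 1 and 9 for *Mast3*.

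Some genes were counted on 1 diet alone, 165 without a count on CD and 44 without a count on HFD. Counted in the most HFD cells without a count on CD were *Rhof*, a small GTPase, in 8 of 19, and *Haus8*, a microtubule factor, and *Trem2* in 7 of 19 each. Against the floor their HFD means were at least 43.5-fold (*Rhof*) and at least 48.7-fold (*Haus8*) higher, the latter at least 27.02-fold without HFD cell 697. Without the cells that held microglia genes the log2 value against the floor was -0.86 for *Rhof* and 5.51 for *Haus8*. The HFD mean of *Rhof* then lay below the CD floor. With no count on CD, its sign gives no order of the diets. Counted in the most CD cells without a count on HFD were *Utp4*, a ribosome biogenesis factor, in 8 of 15, and *Cryz*, a quinone oxidoreductase, and *Clcn6*, an endosomal chloride transporter, in 5 of 15 each. Their CD means were at least 75.9-fold, 313-fold and 213-fold above the HFD floor, but cell 684 held 83.1% of the summed CPM of *Cryz* on CD and cell 659 held 88.3% of that of *Clcn6*. Without these cells the bounds were -5.83 and -4.74 as log2 ratios of HFD to CD. A count of 0 in 19 cells allows a share of up to 17.6% by exact interval for cells with a count.

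Values of the 42 Pomc+ neurons of the same study (23 on CD and 19 on HFD) are given beside those of Ghost neurons, and the difference between the labels was not tested. In Pomc+ neurons 26.2% of 10619 genes were at least 2-fold higher on HFD and 20.3% at least 2-fold lower. Of 15 measured microglia genes 12 were at least 2-fold higher and 0 lower there, with a median log2 ratio of 2.22 against 0.10 over all genes. At least 3 of the 18 genes were counted in 7 of 23 CD and 11 of 19 HFD cells, and mean summed CPM was 526.6 and 2406, a 4.57-fold higher level on HFD. Higher microglia genes on HFD were thus found under both labels. In Pomc+ neurons other glial lists lay above the median of all genes too, with 6 of 9 oligodendrocyte markers (median 1.32) and 6 of 13 astrocyte markers (median 0.69) at least 2-fold higher and 0 of either at least 2-fold lower. *Pomc* averaged 11652 CPM on CD and 3414 CPM on HFD in Pomc+ neurons (log2 ratio -1.77, against -0.77 in Ghost neurons). Of the 24 genes furthest apart between the diets in Ghost neurons, 15 were within 2-fold in Pomc+ neurons, such as *Mast3*, *Stag2* and *Nudt4* with log2 ratios of 0.11, -0.13 and -0.07. A further 7, such as *Opa1* (1.97) and *Hbb-bs* (1.98), were past 2-fold with the sign seen in Ghost neurons, and 2, *Lrp1b* (1.61) and *Wapl* (1.24), with the other sign. Of genes named above from the lists, *Acsl4* (-2.29) and *Lepr* (-2.59) had the sign of Ghost neurons and *Irs2* (1.77) had the other.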

How the data were processed

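Each library was made from the content of 1 patched neuron with a SMART-Seq Single Cell kit and Nextera XT and sequenced in pairs. The authors deposited raw counts per Ensembl gene and cell, without molecular identifiers, and a normalised signal, which is the count divided by 1 size factor per cell (0.0157 to 9.05). The factor equals the median of ratios in 76 of 76 cells and rests on the 7 genes counted in each cell. The submitters' processing notes name cutadapt 2.10, STAR 2.7.5a, DESeq2, GRCm38 and mm10 without roles, and the annotation release is not given in the sources used here. A name table matched 52073 of 56980 identifiers, and 52 of the 8973 genes analysed have no symbol.

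Counts were scaled to CPM, and genes reaching 5 counts in 3 or more of the 34 Ghost cells were kept. Called means at least 2-fold apart in mean CPM. A gene without a count on 1 diet was set to 3 counts over the summed counts of that diet. The same was done where leaving out cells left no count on a diet, so such values are set by this floor. Cells were thinned without replacement to 40000 counts, which leaves out 3 CD and 2 HFD cells. Intervals are exact at 95%. No test, standard error or p-value was made, since the labels name no mouse. The computation was tested on simulated data with Poisson noise alone, which lack the spread between real cells. That test says nothing on how often a difference holds without a diet effect. Python 3.11.15, pandas 2.3.3, numpy 2.4.6 and scipy 1.17.1 were used, and promoters came from RefSeq (GRCm38.p6).

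Members and gene lists were chosen with earlier results of these data known. Genes named are *Pomc*, *Cartpt*, *Npy* and *Ctss*, the 12 highest and 12 lowest by the leave-one-cell-out log2 ratio nearest to 0 among genes in at least 10 cells and on 1 side on 3 scales, and up to 4 most widely counted and 2 held members per list. The rule adds up to 3 genes each way without a count on 1 diet. *Agrp*, *Pcsk1n* and the like fall under the list rule, and the microglia list is given in full but for 1 gene. A few genes that the rules name are not reported here. Alternatives were the scale, the summary over cells, the filter, the depth and the cells used. Leaving out the 16 Ghost cells with at least 3 microglia genes was chosen after seeing the data.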

Additional observations from a re-analysis of the deposited data

How the results depend on the processing

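With no mouse named, every value describes these cells, and depth limits most genes to a few cells with a count. Counts of genes at least 2-fold higher and lower were 2312 and 2282, and 1104 and 822 with any 1 cell left out. With each cell left out in turn they ranged from 2150 to 2735 and from 2050 to 2760, and the median of all genes from -0.17 to 0.12. In deposited values 521 genes held on the lower side. As differences of mean log2(CPM + 1) 858 were higher, 1225 lower and 391 held higher, and of mean log2(CPM + 10) 166, 274, 71 and 100 (held lower). These settings both add a constant and average logs over cells, and the part of each in the smaller differences was not tested. With the filter over all 76 cells 3606 were higher. With a count in at least 10 Ghost cells the counts were 705, 792, 293 and 278, of 4161 genes. Without the 11 HFD cells of the longest run 3424 were lower, 586 held higher and 1808 held lower. Without the cells with at least 3 microglia genes 687 held higher and 1545 held lower. The cause of these shifts was not tested beyond the fewer genes or cells used.

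Log2 ratios changed sign as follows. The median of inflammatory signalling was -0.66 with a count in at least 10 cells. It was -0.58 without HFD cell 671, which is also a run of its own. It was 1.49 without CD cell 709 and -0.98 without the cells that held microglia genes. *Npy2r* was 0.28 in deposited values, 0.93 over summed counts and 0.91 thinned. Over summed counts *Nhlh2* was 0.36, *Glul* 0.90, *Slc1a2* 0.71 and *Cacng2* 0.61. With log2(CPM + 1) *Scg2* was 0.022 and *Fasn* -0.17, and *Fasn* was -0.0048 with log2(CPM + 10), -0.29 without the longest run and from -0.56 without HFD cell 655 to 1.72 without CD cell 659. *Kcnd2* was -0.043 thinned, -0.83 without cells under 1000 genes, -0.73 without cells 713 to 720, and from -0.73 without HFD cell 713 to 3.28 without CD cell 711. Without the longest run *Ntsr2* was -1.10 and *Cacna2d2* -0.72. *Gfap* ran from -2.52 without HFD cell 646 to 0.58 without CD cell 664, *Col23a1* from -3.36 without HFD cell 640 to 3.9 without CD cell 664, and without cells 659 to 668 they were 0.23 and 3.55. *Gabra2* was 3.04 without cells 684 to 691. Without the cells that held microglia genes *B2m* was -0.31, *Cacna2d2* -0.58 and *Grid1* -0.70. *Rhof* was at -0.86 there, but it has no count on CD. Its sign is set by the floor and gives no order of the diets. The cause was not tested.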
